A study of Mus musculus with 14 samples.

Results

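Expression in D2A1 cells, a mouse mammary tumor line, was compared between co-culture with wild-type mouse embryonic fibroblasts (MEFs, Hsf1 +/+, called WT) and co-culture with MEFs lacking the heat shock factor gene (Hsf1 -/-, called null). The comparison holds every array labelled as tumor cells taken from 1 of these co-cultures, 2 arrays with each partner (replicates A and B), which is 4 of the 14 arrays in the series. Tumor cells and MEFs grew together for 72 h in DMEM with 10% FCS and were separated by cell sorting. For the cultures in which tumor cells were profiled, both kinds of MEF had first received mitomycin C, a DNA cross-linking agent that stops cell division, at 10 ug/ml for 2 h. The tumor cells themselves carried no engineered genotype in the labels ("not applicable"), and the labels give the genotype of the partner as the difference between the groups. Other arrays gave reference levels, namely tumor cells grown alone (2 arrays) and WT and null MEFs taken from co-culture (2 each), for which the labels' protocols name no mitomycin step. The labels name no MEF line, clone or embryo, so genotype and MEF stock cannot be told apart, and they do not say whether replicates A and B came from separate cultures, so p-values reflect the spread among these samples alone, which may be technical.

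HSF1 is the transcription factor that induces chaperone genes when proteins misfold, and in the stroma of tumors it is known to drive a fibroblast programme that acts on neighbouring cancer cells. Type I interferons are secreted proteins that bind the receptor chains IFNAR1 and IFNAR2. The kinases JAK1 and TYK2 then activate STAT proteins, which join IRF9 in a complex that binds the interferon-stimulated response element (ISRE) upstream of antiviral genes.

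Values are the authors' log2 expression levels, given per array, and a difference is the null partner mean minus the WT partner mean in log2 units, so a positive difference is higher with null MEFs. Each difference carries its SE from a limma fit over all 7 groups of the series (n = 2 arrays per group, which limits the precision of every value), and a gene passed at a Benjamini-Hochberg adjusted p under 0.05 over all genes tested. Of 25896 genes tested, 2457 (9.49%) passed. With null MEFs 1393 genes (5.38%) were higher and with WT MEFs 1064 (4.11%), with a median difference of -0.04 over all genes tested. The null partner side held the larger changes: 764 genes (2.95%) were higher with null MEFs by at least 2-fold against 197 (0.761%) with WT MEFs, and at 8-fold the counts were 97 and 8. All 2457 had the same sign on both slides of arrays, where slide and replicate letter are the same split. The count was 920 (626 and 294) with the 6 tumor arrays alone and 523 (383 and 140) with the 4 arrays alone. On scanner intensities of the 12 sound arrays the split was 1149 higher with null and 286 with WT, and with normexp background correction it was 1165 and 474. The 2 replicates correlated at r = 0.994 with WT and r = 0.993 with null MEFs across genes, which are not independent replicates.

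**Figure D1:**
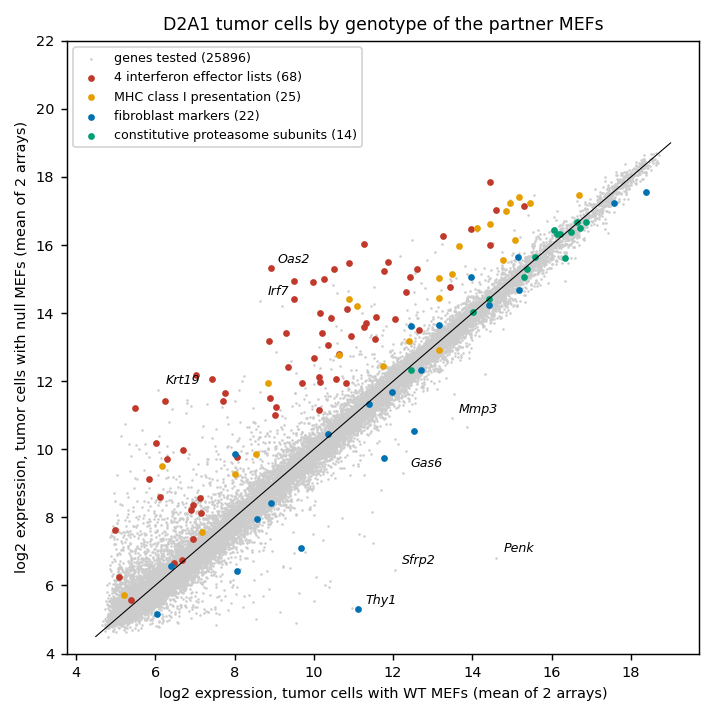
Mean log2 expression of 25896 genes in tumor cells with WT MEFs (x axis) against tumor cells with null MEFs (y axis), 2 arrays each, where the line marks equal levels. The 68 interferon effector genes and the 25 MHC class I genes lie on or above the line, apart from Tapbpl just below it (-0.23), while the 14 constitutive proteasome subunits follow it and Penk, Thy1 and Sfrp2 lie far below.

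The labelled cell type was checked against marker genes. Krt18, a keratin of simple epithelia, was well above background in both groups (16.14 and 16.44 with WT, 16.50 and 16.47 with null), and so was the mesenchymal filament gene Vim (17.54 and 17.60 with WT, 17.16 and 17.32 with null). Of 22 epithelial markers 19 were tested, and among these Cdh1, the gene of E-cadherin, read 5.02 and 5.03 with WT and 5.14 and 5.13 with null and was well above background on 1 of the WT arrays only. Epcam was not well above background on both arrays of any group and was not tested. Hsf1 itself read 12.78 and 12.72 in tumor cells with WT MEFs and 12.44 and 12.29 with null MEFs, and its difference did not pass (-0.38 ± 0.12, adjusted p = 0.0809). In the co-cultured MEFs the same probe (chromosome 15, 76331320 to 76331379, mm9) averaged 12.05 in WT and 10.59 in null. Whether it lies in the deleted part is not given in the sources used here.

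Genes typical of MEFs were seen in the sorted tumor cells, at a higher level on 1 null partner array. Genes at least 32-fold higher in the co-cultured MEFs than in tumor cells alone gave the MEF share of an array. No mitomycin step is named for these reference MEFs, so levels in the MEFs beside the profiled tumor cells may differ. The share is the median level of these genes relative to co-cultured MEFs of the partner's genotype. It was 7.46% (A) and 7.40% (B) with WT MEFs (234 genes), and 9.73% (A) and 24.3% (B) with null MEFs (259 genes). The middle 50% of these genes lay between 5.66% and 9.48% (A) and 5.92% and 9.27% (B) with WT, and between 5.71% and 17.0% (A) and 15.3% and 39.8% (B) with null MEFs. By this measure RNA carried over from MEFs and expression induced in the tumor cells cannot be told apart. The replicate spread of MEF genes followed this: the median SD of genes at least 2-fold higher in MEFs was 0.115 with WT and 0.274 with null MEFs, whereas for other genes it was 0.108 and 0.110. Fewer cells of a type and less RNA per cell cannot be told apart in such bulk samples. The MEF level is therefore given beside the genes below. The part of MEF RNA in each result was not tested except where a value with the MEF share subtracted is printed. That subtraction takes 1 share per array for all genes, although single genes varied around it. Subtracted levels were held at each array's lowest value well above background (the floor), which for 71 of the genes tested was reached on all 4 arrays, so that no difference was left to measure.

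Antiviral genes of the interferon response were higher in tumor cells with null MEFs, by a median of 2.62 log2 units (6.17-fold) over 68 tested members of 4 gene lists. Of these 64 passed as higher with null and 0 as higher with WT, against 5.38% and 4.11% of all genes tested. The counts were 32 of 34 antiviral effectors (median 2.31), 11 of 12 OAS family genes (median 2.66), 17 of 18 GTPases of the GBP and IRG families (median 3.25) and 5 of 5 genes of ISG15 conjugation (median 2.52), with Trim25 in 2 of the lists. The members that did not pass were Ifitm1, Rnf213, Oas1d and Gbp8. With the estimated MEF share subtracted from every tumor array, 64 passed as higher with null and 1 as higher with WT, and over fits that each left out 1 of the 4 arrays 63 to 65 passed. Without genes at least 2-fold higher in MEFs than in tumor cells alone, 11 of the 68 were tested and 8 passed (median 1.02). For 55 of the 68 the null partner mean lay above the null MEF mean, where subtracting a part of the MEF level could not remove the higher level. The genes that set the null share also included list members, among them Oas2, Ifi44 and Mx1. The count after subtraction therefore cannot decide whether MEF RNA contributed.

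Oas2, an enzyme that makes the short oligoadenylates that switch on RNase L, had the highest difference of all genes that were measurable on both sides. It read 9.12 and 8.70 with WT MEFs and 15.17 and 15.47 with null MEFs, a difference of 6.41 ± 0.16 (84.8-fold, adjusted p = 1.65e-08), with 6.04 on slide 1 and 6.77 on slide 2. Its probe lies on chromosome 5 (121180343 to 121180402, mm9). Tumor cells alone read 5.99 and 5.78, and both null partner arrays lay above the mean of the null MEFs (14.29). Oas3, a second synthetase, read 6.13 and 6.38 with WT and 11.32 and 11.53 with null MEFs (5.17 ± 0.16, adjusted p = 7.31e-08). The co-cultured null MEFs averaged 8.90 for Oas3, so the tumor arrays stood more than 2 log2 units above that mean. Oas1a, a further synthetase, read 11.29 and 11.23 against 15.93 and 16.12 (4.77 ± 0.11), again above the null MEF mean of 14.97. The WT and null arrays of these 3 genes did not overlap, as was so in this direction for 20.9% of all genes tested.

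Other leading genes came from several antiviral mechanisms. Irf7, the transcription factor that amplifies interferon production, read 8.66 and 8.63 with WT and 14.10 and 14.64 with null MEFs (5.72 ± 0.29, adjusted p = 1.04e-06). The dynamin-like GTPase Mx1, which blocks entering viruses, read 7.13 and 6.96 against 11.76 and 12.60 (5.14 ± 0.24, adjusted p = 7.49e-07). Ifit3, which sits in a complex that binds viral RNA, read 9.97 and 9.99 against 14.61 and 15.23 (4.94 ± 0.22, adjusted p = 6.21e-07). In each case the null partner arrays were higher by more than 4 log2 units, and replicate arrays lay within 1 unit of each other. Usp18, the protease that removes ISG15 and dampens receptor signalling, read 10.60 and 10.43 against 15.30 and 15.30 (4.79 ± 0.21). Ifi44 (5.43 ± 0.20) and Mx2 (4.92 ± 0.23) completed the antiviral genes among the 10 highest of those measurable on both sides, with Zbp1 described below among the sensors. Rsad2, the antiviral enzyme viperin, was not well above background on the WT partner arrays (5.33 and 5.67) and read 10.64 and 11.76 with null MEFs, at least 51.9-fold higher (adjusted p = 1.79e-06). Ubd, a ubiquitin-like modifier induced by interferon and TNF, was likewise dim with WT MEFs (5.37 and 5.29) and read 9.47 and 10.85 with null MEFs, at least 28.4-fold higher. The GTPase Gbp3 read 10.87 and 10.89 with WT and 15.25 and 15.71 with null MEFs (4.60 ± 0.16), and the ubiquitin-like Isg15 read 13.94 and 13.97 against 16.31 and 16.64 (2.52 ± 0.14). Oas1, GBP and MHC class I paralogs are close in sequence, so a probe may carry signal from more than 1 member.

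**Figure D2:**
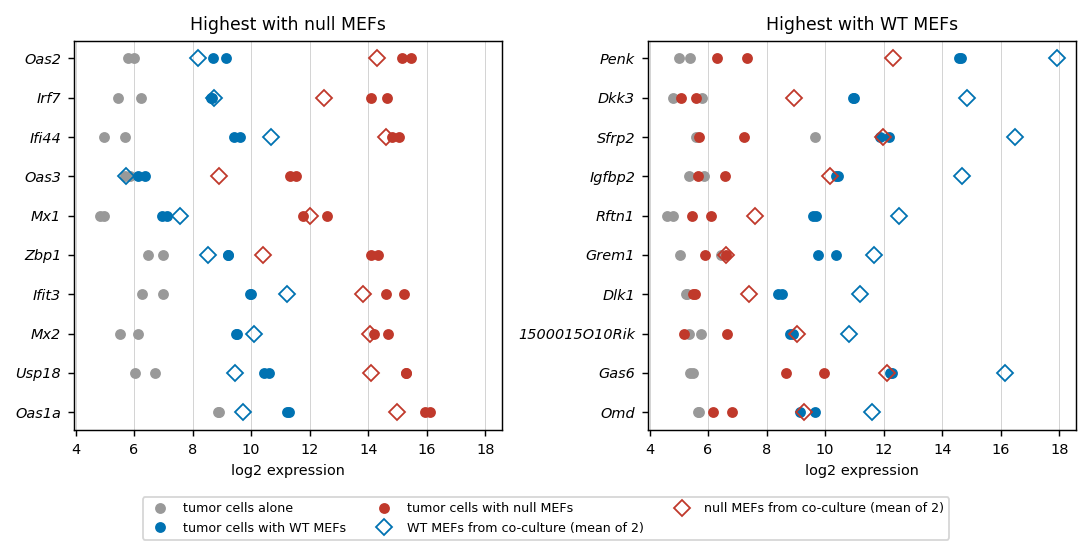
Log2 expression of the 10 genes with the highest (left) and lowest (right) difference among those measurable in both groups: filled points are single tumor cell arrays (grey alone, blue with WT, red with null MEFs), and open diamonds are means of the co-cultured MEFs. On the left the null partner arrays lie at or above the null MEF mean apart from 1 Mx1 array (11.76 against 12.02), and on the right the WT partner arrays lie well below the WT MEF mean.

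The order of the groups was the same for most of these genes. The median level of the 68 interferon effector genes was 7.54 in cells grown alone, 10.06 with the WT partner and 12.93 with the null partner. Tumor cells alone were lowest and cells with null MEFs highest for 61 of the 68, and for 55 the order held on every array. The null partner mean lay above the mean of the co-cultured null MEFs for 55 of the 68. Over all 25896 genes tested these counts were 4053, 1319 and 13238.

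Promoters of 2 of the leading genes are shown because their letters carry the ISRE core that the gene group is known for. The windows are the 250 bases before the RefSeq transcript start (GRCm38.p6), printed 5′ to 3′ on the strand of the gene for Oas3 (chr5:120777660-120777909, minus strand) and Ifit3 (chr19:34583279-34583528, plus strand), and capitals mark matches to GAAANNGAAA or its reverse complement TTTCNNTTTC.
Oas3: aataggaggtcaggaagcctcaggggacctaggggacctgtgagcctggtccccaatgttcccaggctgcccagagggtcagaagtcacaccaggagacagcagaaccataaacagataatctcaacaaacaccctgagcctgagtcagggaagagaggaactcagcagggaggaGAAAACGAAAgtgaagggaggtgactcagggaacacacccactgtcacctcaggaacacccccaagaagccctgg
Ifit3: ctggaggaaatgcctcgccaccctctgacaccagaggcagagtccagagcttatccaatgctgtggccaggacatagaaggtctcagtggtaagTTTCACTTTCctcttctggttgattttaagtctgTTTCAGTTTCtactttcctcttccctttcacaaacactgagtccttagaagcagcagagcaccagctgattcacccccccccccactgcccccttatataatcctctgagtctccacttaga

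In Oas3 the match starts 75 bases before the transcript start, and in Ifit3 the matches start 156 and 122 bases before it. Both strands were searched in all windows of the table that belong to genes tested, and 2.97% of 16209 windows held the ISRE core. Among genes that passed as higher with null MEFs the share was 7.72% of 1178 windows, among those at least 2-fold higher 12.2% of 600, and among those at least 8-fold higher 36.5% of 63. Windows of the 4 interferon lists held it in 42.6% of 54 and those of MHC class I genes in 21.1% of 19, whereas genes higher with WT MEFs held it in 2.55% of 705. The windows of Irf7 and Ifi44 held no match. A heat shock element, 3 alternating GAA and TTC units that begin with either and stand 2 bases apart, was in 0.543% of windows of all genes tested and in 5 of 30 windows of the cytosolic heat shock list (16.7%), in 0.340% of windows of genes higher with null MEFs and in 1 of the 63 windows of those at least 8-fold higher (1.59%). The NF-kB site GGGANTTTCC, searched with its reverse complement GGAAANTCCC, was in 0.444% of windows of all genes tested in 0.509% of those of genes higher with null MEFs, in 0.833% of those at least 2-fold higher and in 2 of the 63 at least 8-fold higher (3.17%). The 3 motifs were searched separately, and a match is a run of letters, not evidence of binding.

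Sensors of foreign or misplaced nucleic acid were higher with null MEFs in 11 of 18 cases and with WT MEFs in 0 (median 1.19). The matching shares of all genes tested were 5.38% and 4.11%. Zbp1, a sensor of Z-form nucleic acid that can trigger necroptosis, read 9.22 and 9.19 with WT and 14.08 and 14.32 with null MEFs (4.99 ± 0.16, adjusted p = 1.37e-07), far above the null MEF mean of 10.39. Mnda, of the interferon-inducible p200 family, was dim with WT MEFs (5.64 and 5.54) and read 9.77 and 10.23 with null MEFs, at least 21.2-fold higher. The RNA helicases followed: Dhx58 rose from 8.63 and 8.64 to 11.65 and 11.70 (3.04 ± 0.19), Ifih1 from 5.93 and 5.88 to 7.94 and 9.23 (2.68 ± 0.31) and Ddx58, which encodes RIG-I, from 10.12 and 10.20 to 12.25 and 12.52 (2.23 ± 0.12). The adaptor Mavs, through which RIG-I signals, was level (13.37 and 13.24 with WT, 13.42 and 13.24 with null, a difference of 0.03 ± 0.12), and the adaptor Tmem173, known as STING, did not pass (0.35 ± 0.16, adjusted p = 0.212).

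Among receptors, kinases, STATs and IRFs, 6 of 24 were higher with null MEFs and 0 with WT (median 0.43). All genes tested gave 5.38% and 4.11%. Components of the ISRE-binding complex were among the 6. Stat2 read 11.26 and 11.17 with WT and 13.77 and 14.26 with null MEFs (2.80 ± 0.15), and Irf9 read 12.56 and 12.48 against 14.53 and 14.73 (2.11 ± 0.12). The receptor and kinase genes upstream of them did not pass: Ifnar1 differed by -0.05 ± 0.12, Ifnar2 by 0.44 ± 0.14 (adjusted p = 0.0879), Jak1 by 0.18 ± 0.14 and Tyk2 by 0.32 ± 0.19. Irf5 was higher with null (1.41 ± 0.20, adjusted p = 0.00152), and Irf3, which is activated by phosphorylation, differed by 0.03 ± 0.19.

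Interferon genes themselves gave 1 call. Of 19 listed ligands 11 were tested, and Ifnb1 passed as higher with null, with a list median of 0.02. A count of 1 in a list of 11 lies near the 5.38% of all genes tested that were higher with null. Ifnb1 read 5.61 and 5.88 with WT, where it was not well above background, and 6.64 and 7.38 with null MEFs, at least 2.40-fold higher (1.26 ± 0.34, adjusted p = 0.0420). Tumor cells alone read 4.85 and 6.08 and the null MEFs averaged 6.19. The Ifnb1 call was lost without WT array A (adjusted p = 0.173), WT array B (0.106) or null array B (0.226).

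Antigen presentation by MHC class I was higher with null MEFs, in 21 of 25 genes with 0 higher with WT (median 1.78). Of all genes tested 5.38% and 4.11% passed in these directions. The inducible proteasome subunits, which change the peptides cut for presentation, were among the genes that passed. Psmb9 read 10.97 and 10.80 with WT and 14.17 and 14.69 with null MEFs (3.54 ± 0.18, adjusted p = 1.16e-06, probe on chromosome 17 at 34319174 to 34319233, mm9), Psmb8 read 11.18 and 10.98 against 13.86 and 14.58 (3.14 ± 0.23), and Psmb10 read 15.05 and 15.11 against 15.99 and 16.31 (1.07 ± 0.14). By contrast, of 14 constitutive proteasome subunits 0 were higher with null and 1 was higher with WT (median -0.03), and that call, of Psma5, was lost without any 1 of the 4 arrays (adjusted p from 0.108 to 0.157). The peptide transporter gene Tap1 read 8.90 and 8.78 against 11.77 and 12.11 (3.09 ± 0.20) and its partner Tap2 read 13.16 and 13.17 against 14.31 and 14.59 (1.28 ± 0.14). The classical heavy chain H2-K1 read 15.41 and 15.49 against 17.14 and 17.32 (1.78 ± 0.10), and the nonclassical H2-T23, a ligand of NK cell receptors, read 15.18 and 15.17 against 17.38 and 17.43 (2.22 ± 0.10). Nlrc5, the transactivator of MHC class I genes, was also higher (1.32 ± 0.15, adjusted p = 0.000327), while the light chain B2m did not pass (0.78 ± 0.22, adjusted p = 0.0556). For 23 of the 25 genes the means rose in the order alone, WT partner, null partner.

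Of MHC class II genes 4 of 9 were higher with null MEFs (2 without WT array B) and 0 with WT (median 0.59). The matching shares of all genes tested were 5.38% and 4.11%. Cd74, the invariant chain, read 8.30 and 8.06 with WT and 11.23 and 12.79 with null MEFs (3.83 ± 0.40, adjusted p = 0.000171), beside 12.55 in the null MEFs. H2-Ab1 was dim with WT (5.12 and 5.02) and read 6.97 and 8.85 with null MEFs, at least 7.19-fold higher. For both genes null array B, the array with the larger MEF share, was the higher of the pair.

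**Figure D3:**
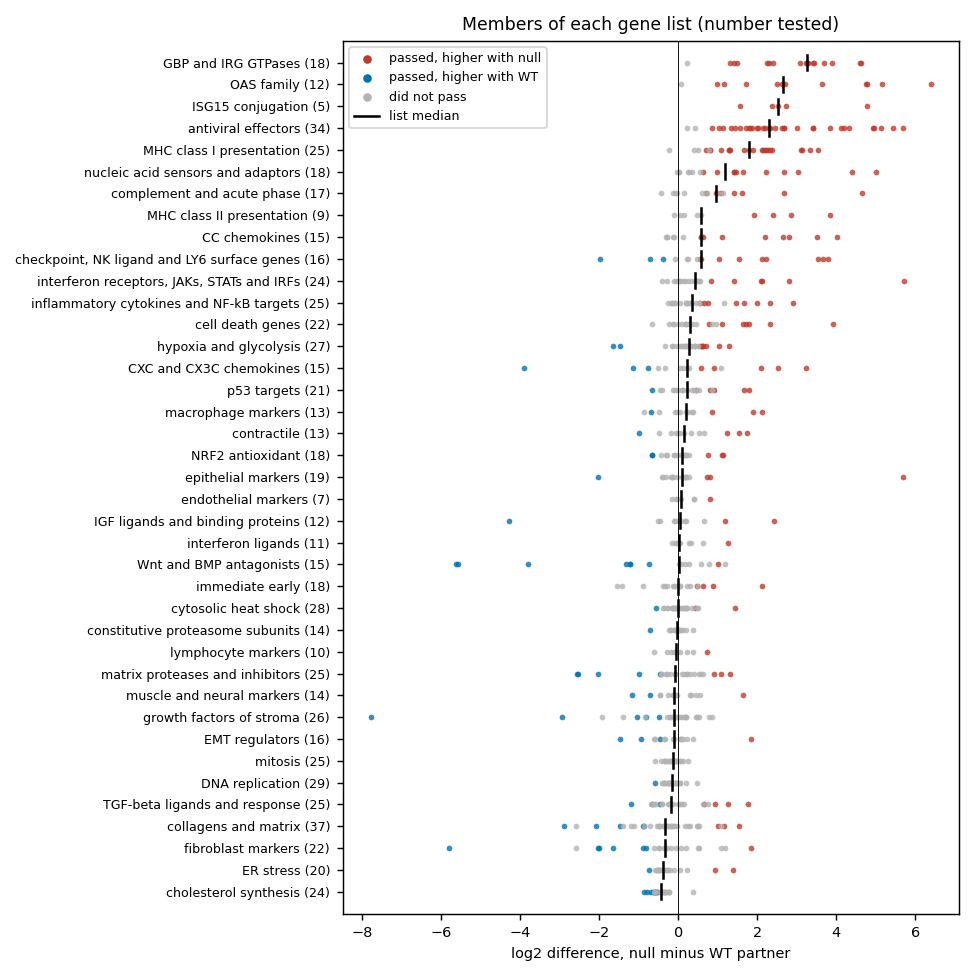
Log2 difference between tumor cells with null and with WT MEFs for every tested member of 39 gene lists, sorted by list median (black bars), with the number tested in brackets. Red and blue points passed as higher with null and with WT MEFs, and grey points did not pass; the 4 interferon lists have medians from 2.31 to 3.25 and cholesterol synthesis has the lowest median, -0.45.

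Chemokines and inflammatory mediators were higher with null MEFs in part. Of 15 CC chemokines 9 were higher with null and 0 with WT (median 0.58), against 5.38% and 4.11% of all genes tested. Ccl7, an attractant of monocytes, read 10.82 and 10.33 with WT and 13.89 and 15.31 with null MEFs (4.02 ± 0.42, 16.3-fold, adjusted p = 0.000161), while tumor cells alone read 4.83 and 5.88 and the MEFs averaged 12.80 (WT) and 13.41 (null). Ccl2, another monocyte attractant, read 12.43 and 11.92 against 14.87 and 16.48 (3.50 ± 0.41), and Ccl5, which attracts T cells, read 13.29 and 13.19 against 15.57 and 16.48 (2.79 ± 0.27). On null array B all 3 stood above the null MEF mean. Ccl8 was dim with WT MEFs and at least 4.54-fold higher with null. The CXC and CX3C chemokines were split, with 5 of 15 higher with null and 3 higher with WT (1 without WT array A; median 0.22, and -0.05 without null array B). Cxcl10, the interferon-induced ligand of CXCR3, read 11.49 and 11.54 against 14.31 and 15.19 (3.24 ± 0.23, adjusted p = 1.12e-05), and Cxcl16 read 5.93 and 5.77 against 7.53 and 8.37 (2.10 ± 0.22).

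Cxcl12, the stromal chemokine that binds CXCR4, ran the other way. It read 12.51 and 12.43 with WT and 11.04 and 11.62 with null MEFs (-1.14 ± 0.17, adjusted p = 0.00185), beside 11.48 and 11.68 in tumor cells alone, so the WT partner arrays were the higher ones. WT MEFs averaged 15.92 and null MEFs 12.70. With the estimated MEF share subtracted, the sign turned (0.65, adjusted p = 0.0233), and in a fit of the 4 arrays alone the difference did not pass (adjusted p = 0.0920). The subtracted value rests on 1 median share per array. Single marker genes varied around that share with WT (quartiles 5.66% to 9.48% and 5.92% to 9.27%). The turned sign therefore cannot show which partner gave the higher Cxcl12 level in the tumor cells themselves. Tgfb1, the gene of transforming growth factor beta 1, read 11.81 and 12.07 with WT and 11.47 and 11.59 with null MEFs, and this difference did not pass (-0.41 ± 0.18, adjusted p = 0.189).

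Of 25 inflammatory cytokines and NF-kB targets 8 were higher with null and 0 with WT (median 0.34). This stands beside 5.38% and 4.11% of all genes tested. Saa3, an acute-phase protein, read 7.91 and 7.76 with WT and 10.41 and 11.05 with null MEFs (2.89 ± 0.22, adjusted p = 1.87e-05). Both MEF groups were lower (7.03 in WT, 7.32 in null). Ptgs2, the inducible cyclooxygenase, read 6.69 and 6.44 against 8.45 and 9.34 (2.33 ± 0.24) and Il15, a cytokine for NK and T cells, read 7.95 and 8.10 against 9.61 and 9.33 (1.45 ± 0.16), above both MEF means (6.56 and 6.43). Tnf and Il1b, upstream cytokines, did not pass (0.34 ± 0.14 and 0.05 ± 0.12). Il6 was uneven between WT replicates (10.35 and 6.60) and did not pass (9.09 and 10.17 with null, adjusted p = 0.494).

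Complement and acute-phase genes were higher with null MEFs in 8 of 17 cases and with WT in 0 (median 0.94), and in 3 without WT array A, WT array B or null array B. Cfb, the alternative pathway protease, read 6.67 and 6.93 with WT and 11.15 and 11.74 with null MEFs (4.65 ± 0.17, 25.1-fold, adjusted p = 2.28e-07), above the null MEF mean of 8.70. C3, the central component, read 13.11 and 12.62 against 14.85 and 16.25 (2.69 ± 0.36). Of 22 cell death genes 7 were higher with null and 0 with WT (median 0.30). The shares of all genes tested, for this list and the complement list, were 5.38% and 4.11%. Casp4, the inflammatory caspase that senses lipopolysaccharide, read 8.30 and 8.18 against 11.56 and 12.74 (3.92 ± 0.32). Mlkl, the pore-forming effector of necroptosis, read 11.78 and 11.66 with WT and 13.42 and 13.28 with null MEFs (1.63 ± 0.11, adjusted p = 5.41e-06), above both MEF means (10.52 and 11.88) and with tumor cells alone in between (12.35 and 12.18).

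Surface genes that immune cells read were mixed: 9 of 16 were higher with null MEFs and 3 with WT (median 0.57), the latter 1 without WT array A, WT array B or null array B. Of all genes tested 5.38% passed as higher with null and 4.11% as higher with WT. Cd274, which encodes PD-L1, read 6.21 and 6.58 with WT and 8.27 and 8.75 with null MEFs (2.12 ± 0.20, adjusted p = 8.17e-05). Ly6e read 12.46 and 12.49 against 16.12 and 16.16 (3.66 ± 0.16), more than 1 log2 unit above the null MEF mean of 14.42. Ly6a, which encodes Sca-1, read 11.05 and 10.67 against 14.21 and 15.07 (3.78 ± 0.26). In the other direction H60b, a ligand of the activating NK receptor NKG2D, read 12.28 and 11.95 with WT and 10.41 and 9.87 with null MEFs (-1.98 ± 0.19, adjusted p = 8.83e-05). Tumor cells alone read 12.40 and 12.07 for H60b, so it was the null partner arrays that differed from cells grown alone. Its probe lies on chromosome 10 (22006931 to 22006990, mm9).

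Genes higher with WT MEFs by 8-fold or more were few, and each was a gene of the MEFs. Penk, the precursor of enkephalin peptides, read 14.56 and 14.63 with WT and 6.30 and 7.32 with null MEFs (-7.79 ± 1.21, 221-fold, adjusted p = 0.00263, probe on chromosome 4 at 4060724 to 4060783, mm9). WT MEFs averaged 17.92, null MEFs 12.32, and tumor cells alone read 5.38 and 5.01. With the MEF share subtracted, null arrays at the floor, Penk was at least 254-fold higher with WT (adjusted p = 0.00193). That bound rests on the WT level left after a median share of 7.46% (A) and 7.40% (B) was subtracted. Single marker genes varied around these shares with WT (quartiles 5.66% to 9.48% and 5.92% to 9.27%). The bound therefore cannot show how much of the Penk difference is free of MEF RNA. On the scanner intensities of the 12 sound arrays, of which 1 was a null partner array, Penk differed by -7.85 and did not pass. Thy1, a fibroblast surface protein, read 11.20 and 11.02 with WT MEFs, was not well above background with null MEFs (5.55 and 5.07), and was at least 55.8-fold higher with WT (adjusted p = 0.00790), beside 14.40 in WT and 8.04 in null MEFs. Rftn1, a lipid raft protein, read 9.67 and 9.57 against 5.46 and 6.09 (-3.85 ± 0.61). After the same subtraction, null arrays at the floor, Rftn1 was at least 14.3-fold higher with WT, a bound with the same limit. Igfbp2, which binds insulin-like growth factors, read 10.38 and 10.43 against 5.67 and 6.58 (-4.28 ± 0.71), with 14.67 in WT MEFs, and with the MEF share subtracted all 4 arrays were at the floor. Thy1, Rftn1 and Igfbp2, like Grem1 below, did not pass on the 12 sound scanner arrays either.

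Secreted antagonists were among the genes higher with WT MEFs, which made up 4.11% of all genes tested (5.38% were higher with null). Of 15 Wnt and BMP antagonists 7 were higher with WT and 1 with null MEFs (4 with WT without WT array B or null array A, and 4 with null without null array A). The list median was 0.01, but -0.41 on the 12 sound scanner arrays and -0.44 without null array B. Grem1, a BMP antagonist, read 10.36 and 9.76 with WT and 5.89 and 6.60 with null MEFs (-3.81 ± 0.62). The Wnt antagonist Dkk3 read 10.95 and 10.99 against 5.08 and 5.60 (-5.62 ± 1.18, adjusted p = 0.0133), a call lost without WT array A (adjusted p = 0.0632), WT array B (0.0698) or null array A (0.0578). Sfrp2, another Wnt antagonist, read 11.89 and 12.19 against 5.70 and 7.24 (-5.57 ± 1.34, adjusted p = 0.0262), and its call was lost without any 1 of the 4 arrays (adjusted p from 0.053 to 0.122). With the MEF share subtracted, Dkk3 and Sfrp2 were at the floor on all 4 arrays.

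Matrix, protease and fibroblast lists were higher with WT MEFs only in part, beside 4.11% of all genes tested (5.38% were higher with null). Of 25 matrix proteases and inhibitors 5 were higher with WT and 3 with null (median -0.08, and 0.06 after normexp background correction). Left-out arrays gave 3 with WT (WT array A, WT array B or null array A) and 1 (WT array B) or 6 (null array A) with null. Mmp3, the protease stromelysin 1, read 13.52 and 13.43 with WT and 10.90 and 10.92 with null MEFs (-2.57 ± 0.11, adjusted p = 5.32e-07, probe on chromosome 9 at 7455751 to 7455810, mm9). WT MEFs averaged 12.28, so for Mmp3 the WT partner tumor arrays stood above the WT MEF mean as well as above tumor cells alone (10.34 and 10.31). Mmp2, a gelatinase, read 9.62 and 9.37 against 6.59 and 7.30 (-2.55 ± 0.33), with 13.14 in WT MEFs. With the MEF share subtracted Mmp2 differed by 0.17, with 1 WT array at the floor. Of 37 collagens and matrix genes 5 were higher with WT and 3 with null (median -0.33). These counts became 3 and 1 without WT array B and 12 and 1 without null array B, and the null count was 9 without null array A and 1 without WT array A. Omd, a small proteoglycan, led with -2.90 ± 0.24, and Col1a1 and Col3a1 did not pass (1.09 ± 0.34 and 0.50 ± 0.49), with null array B the highest of the 4 for both. Of 22 fibroblast markers 6 were higher with WT and 1 with null (median -0.35), the latter 0 without WT array B and 6 without null array A. The summed level of the list ranged from 19.37 to 19.42 with WT and from 18.85 to 19.21 with null MEFs, against 18.86 and 18.89 in tumor cells alone. That sum is weighted to bright members that tumor cells also express, so it does not measure the MEF share. Among these S100a4 averaged 17.87 in tumor cells alone, 18.37 with WT and 17.54 with null MEFs. Pdgfrb, the receptor of platelet-derived growth factor on stromal cells, read 12.41 and 12.65 with WT and 10.34 and 10.71 with null MEFs (-2.01 ± 0.16), the latter at or below tumor cells alone (10.80 and 10.79).

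**Figure D4:**
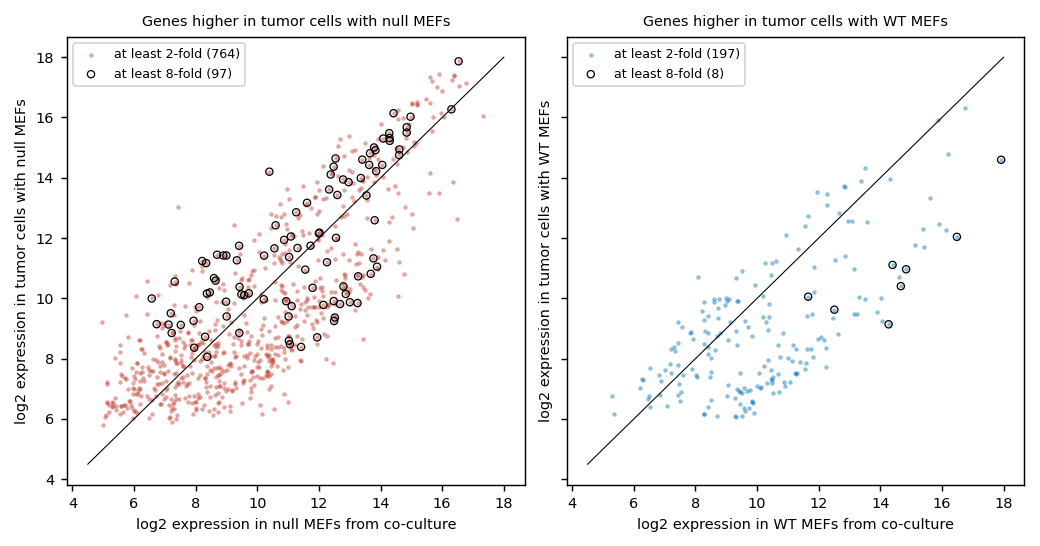
Mean log2 expression in tumor cells (y axis) against co-cultured MEFs of the partner's genotype (x axis), where the line marks equal levels. Genes at least 2-fold higher with null MEFs (left, 764) and with WT MEFs (right, 197) are shown, and rings mark genes at least 8-fold different. Of the 97 ringed genes on the left 67 lie above the line, and of the 8 on the right 0 do.

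The called genes were then set against the MEF level. All 97 genes at least 8-fold higher with null MEFs and all 8 at least 8-fold higher with WT were at least 2-fold higher in co-cultured MEFs than in tumor cells alone. Among 3838 such genes tested, 21% passed as higher with null and 7.06% as higher with WT. Among the 22058 other genes the shares were 2.67% (588 genes) and 3.6% (793 genes). The tumor levels of the 97 genes exceeded the null MEF mean for 67, and those of the 8 genes exceeded the WT MEF mean for 0. Of all called genes, 727 of 1393 higher with null lay above the null MEF mean and 685 of 1064 higher with WT lay above the WT MEF mean, against 13238 and 14868 of all 25896 genes tested. The MEFs themselves differed between genotypes in 7641 genes (29.5%). The called tumor genes were counted as going the same way there in 752 of 1393 and 555 of 1064 cases. They were counted as opposite in 159 and 97 cases, and the others fell in neither class.

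Genes typical of the tumor line itself were taken as those at least 2-fold higher in tumor cells alone than in either co-cultured MEF group. Of 1345 such genes 77 (5.72%) were higher with null and 84 (6.25%) with WT MEFs. Itgb7, an integrin chain of lymphocytes, read 10.69 and 9.57 with WT and 13.30 and 12.73 with null MEFs (2.89 ± 0.31, adjusted p = 0.000203), beside 11.80 and 11.98 in tumor cells alone and 8.44 and 7.44 in WT and null MEFs. Apobec1, a cytidine deaminase that edits RNA, read 11.98 and 11.66 against 13.64 and 13.58 (1.79 ± 0.18), with 12.84 and 13.04 alone. In both genes the cells grown alone lay between the partners. Gtsf1, a gametocyte-specific factor, read 7.45 and 7.14 against 9.20 and 9.15 (1.88 ± 0.14), the exchange factor Fgd3 differed by 1.89 ± 0.19 and the receptor Cd93 by 1.85 ± 0.20. The 77 genes had a median of -0.18 with null MEFs and -1.01 with WT MEFs relative to tumor cells alone, and 65 of them were nearer to the level alone with null MEFs. For the 84 genes higher with WT the medians were -0.20 with WT and -1.01 with null MEFs, and 83 were nearer with WT. Both sets were chosen for a high level in cells alone and by the direction between partners. Which partner was nearer was therefore largely fixed by that choice. Pip, a secreted protein of apocrine and mammary glands, was among the 84 genes (mean 10.70 with WT and 9.44 with null, n = 2 each, -1.27 ± 0.19). It did not pass in a limma fit of the 6 tumor arrays alone (adjusted p = 0.0502).

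**Figure D5:**
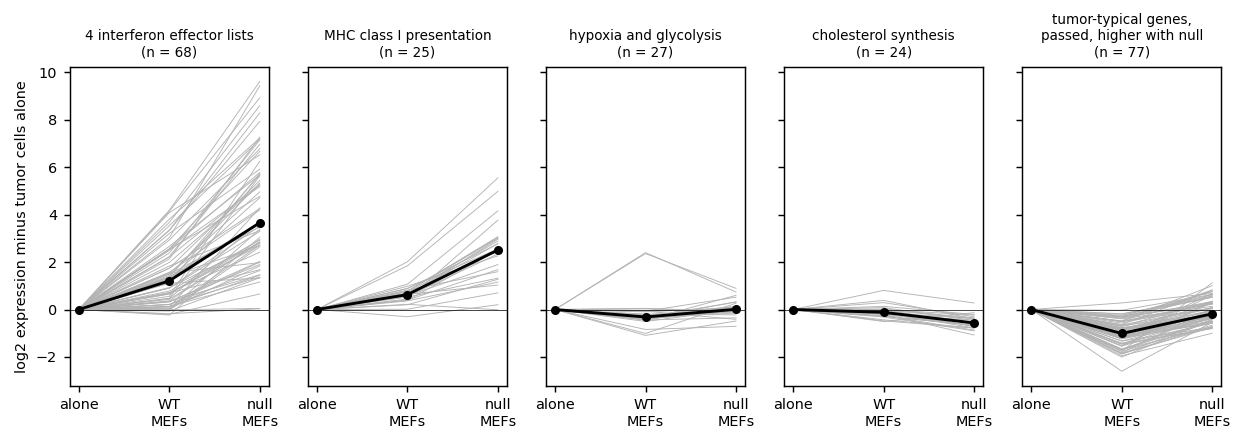
Log2 expression relative to tumor cells alone in tumor cells with WT and with null MEFs, for single genes (grey) and their median (black), in 5 gene sets. The interferon median rises to 1.21 with WT and 3.66 with null MEFs, the hypoxia and glycolysis median lies at -0.31 and 0.01, cholesterol synthesis at -0.12 and -0.57, and the tumor-typical genes chosen as higher with null at -1.01 and -0.18.

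Chaperone genes are the classical targets of HSF1. Of 28 cytosolic heat shock genes 2 were higher with null and 1 with WT MEFs, beside 9.49% of all genes tested that passed in either direction, and the list median was -0.02, with a sign that turned under quantile scaling (0.01) and on the 12 sound scanner arrays (0.04). Hspa1a, the inducible HSP70, read 10.47 and 10.48 with WT and 10.13 and 10.61 with null MEFs, and neither it (-0.10 ± 0.27) nor Hsp90aa1 (0.12 ± 0.13) passed. The arrays of the 2 groups overlapped for Hspa1a. Cryab, a small heat shock protein, was the exception that passed: it read 12.67 and 12.55 with WT and 14.08 and 13.99 with null MEFs (1.43 ± 0.13, adjusted p = 6.13e-05, probe on chromosome 9 at 50564566 to 50564625, mm9), with 13.69 and 13.77 in tumor cells alone. The other calls, Hspb8 and Ahsa1, were lost when single arrays were left out (adjusted p up to 0.151 and 0.0682), which left 1 higher with null without WT array B, null array A or null array B and 0 with WT without WT array B or null array A. Of 20 ER stress genes 2 were higher with null (1 without WT array B or null array B) and 2 with WT (1 without WT array B, null array A or null array B; median -0.38). Among them was Ddit3, the pro-apoptotic factor CHOP, at 11.10 and 10.78 with WT and 12.03 and 12.60 with null (1.37 ± 0.20).

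Metabolic lists moved by less than 1 log2 unit in the median. Of all genes tested 4.11% were higher with WT and 5.38% with null. Of 24 cholesterol synthesis genes 9 were higher with WT and 0 with null MEFs, with a median of -0.45. Without WT array B 2 passed as higher with WT, and without null array B 3 did and 1 passed as higher with null. Dhcr7, which catalyses the last step of the pathway, read 10.34 and 10.43 with WT and 9.77 and 9.81 with null MEFs (-0.60 ± 0.10, adjusted p = 0.00425), and the reductase Tm7sf2 read 10.46 and 10.45 against 9.93 and 9.92 (-0.53 ± 0.10). Neither passed on the 12 sound scanner arrays (adjusted p = 0.215 and 0.818), with normexp (0.177 and 0.428) or with the 6 tumor arrays alone (0.0772 and 0.0657). Hmgcs1, which makes the first committed intermediate, read 14.49 and 14.87 against 13.92 and 13.88 (-0.78 ± 0.15), a call lost without WT array B (adjusted p = 0.0596). The null partner mean was the farther from tumor cells alone for 22 of the 24, against 14996 of all 25896 genes tested.

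Hypoxia and glycolysis genes were higher with null MEFs in 7 of 27 cases and with WT in 2 (median 0.27). These counts stand beside 5.38% and 4.11% of all genes tested. The null count was 3 without WT array A or null array B and 4 without WT array B, and the WT count was 1 without WT array A, WT array B or null array A. Ndrg1, a hypoxia-induced gene, read 13.86 and 13.88 with WT and 15.19 and 15.10 with null MEFs (1.28 ± 0.12, adjusted p = 6.93e-05, probe on chromosome 15 at 66761057 to 66761116, mm9). Bnip3, a mitophagy receptor, read 13.17 and 13.10 against 14.19 and 14.15 (1.04 ± 0.09, adjusted p = 6.38e-05), and was not called on the 12 sound scanner arrays. Tumor cells alone read 14.89 and 14.86 for Ndrg1 and 13.54 and 13.61 for Bnip3. The null partner mean was the nearer to cells alone for 21 of the 27, against 10900 of all 25896 genes tested. Vegfa, the angiogenic factor, and Ldha, lactate dehydrogenase, did not pass (0.18 ± 0.13 and 0.31 ± 0.13). Car9, carbonic anhydrase 9, was higher with WT (9.54 and 9.54 against 7.90 and 8.26, -1.46 ± 0.16), beside 13.89 in WT MEFs, and with the MEF share subtracted it was at the floor on all 4 arrays.

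Stress and growth lists held single genes that passed, where 5.38% of all genes tested were higher with null and 4.11% with WT. A count of 1 in a list of this size lies near those shares. Of 21 p53 targets 5 were higher with null (2 without WT array A, WT array B or null array B, and 8 without null array A) and 1 with WT (median 0.21), with Gdf15, a stress cytokine, at 6.68 and 6.87 against 8.31 and 8.54 (1.65 ± 0.15) and Sesn1, a sestrin, on the WT side (-0.66 ± 0.09). Of 18 NRF2 antioxidant genes 3 were higher with null and 2 with WT (1 without WT array B or null array B; median 0.10, and -0.06 on the 12 sound scanner arrays), and of 18 immediate early genes 4 were higher with null (2 with either null array left out) and 0 with WT (median -0.01, and 0.16 on those scanner arrays). Atf3, a stress-induced transcription factor, read 9.85 and 9.22 against 11.30 and 12.03 (2.13 ± 0.35). Of 25 TGF-beta ligands and response genes 4 were higher with null (2 without WT array B) and 3 with WT (1 without WT array B or null array A; median -0.18), and Pmepa1, a feedback target of the pathway, was higher with WT (-1.19 ± 0.16). Of 12 IGF ligands and binding proteins 2 were higher with null and 1 with WT (median 0.03, and -0.18 on the 12 scanner arrays). The RNA-binding Igf2bp1 read 10.33 and 10.40 against 11.46 and 11.65 (1.19 ± 0.11). Of 26 growth factors of stroma 5 were higher with WT (3 with either WT array left out) and 0 with null (4 without null array A, 1 without null array B; median -0.10). Areg, an EGF receptor ligand, read 12.86 and 12.70 with WT and 12.13 and 11.82 with null (-0.81 ± 0.12), above both MEF means (11.25 and 8.34).

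Proliferation genes showed few calls, beside 5.38% of all genes tested that were higher with null and 4.11% with WT. Of 29 DNA replication genes 0 were higher with null and 1, the thymidylate synthase gene Tyms (-0.59 ± 0.11, adjusted p = 0.00674), was higher with WT (median -0.16), and of 25 mitosis genes 0 passed in either direction (median -0.14; 2 higher with WT without null array A). Mki67, the proliferation marker, read 15.41 and 15.64 with WT and 15.20 and 15.47 with null MEFs (-0.19 ± 0.12).

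The remaining lists described cell identity. Over all genes tested 5.38% were higher with null and 4.11% with WT, so 1 call in a short list says little about that list. Of 16 EMT regulators 3 were higher with WT and 1 with null (1 and 0 without WT array B; median -0.12, and 0.01 after normexp), and of 13 contractile genes 3 were higher with null and 1 with WT (median 0.15, and -0.14 on the 12 scanner arrays). With either WT array left out the contractile null count was 1, without null array A it was 5, and without any 1 array the WT count was 0. Of 19 epithelial markers 3 were higher with null (1 without WT array A, WT array B or null array B) and 1 with WT (2 without null array A; median 0.09, and -0.11 on the 12 scanner arrays). Krt19, a simple epithelial keratin, read 5.98 and 6.15 with WT and 11.21 and 12.28 with null MEFs (5.68 ± 0.27, 51.2-fold, adjusted p = 8.28e-07), beside 5.29 and 5.42 in tumor cells alone and 11.73 in the null MEFs. Krt19 was not well above background on every WT partner array, so it was left out of the 10 highest. Of 13 macrophage markers 3 were higher with null and 1 with WT (0 without WT array A or null array B, 2 without null array A; median 0.20), with Mpeg1, a perforin of phagocytes, at 5.47 and 5.36 against 7.11 and 7.93 (2.11 ± 0.21). Ptprc, the pan-leukocyte gene, did not pass (0.04 ± 0.17), and the summed level of the list ranged from 13.21 to 13.39 with WT and from 13.63 to 13.64 with null MEFs. Of 10 lymphocyte markers 1 was higher with null (median -0.07), and of 7 endothelial markers 1 was higher with null (0 without WT array A, WT array B or null array B, 2 without null array A; median 0.06). Of 14 muscle and neural markers 1 was higher with null (0 without WT array A, WT array B or null array A) and 2 with WT (1 without WT array A, WT array B or null array B; median -0.10).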

How the data were processed

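Arrays were 1-colour Agilent mouse arrays, 4 in this comparison and 14 in the fit, with replicate A of each group on slide 1 and B on slide 2. The authors' deposited value table holds log2 values for 36413 gene rows and 140 control rows. Its scaling between arrays is not given in the sources used here, and the array medians (6.33 to 6.40) leave its centring unknown, whereas log2 scale and direction matched the scanner files (r = 0.985 with the mean over the spots of a gene). The scanner files hold intensity and background flags, which the authors made with Agilent's Feature Extraction (per the file headers version 10.1.1.1, per the submitters' processing notes 9.1). Faults were found in the scanner files of null partner A and of tumor cells grown alone A (36.8% and 32.1% of spots with outlier flags, against 0.246% to 5.74% on the other 12, and a highest r of 0.499 and 0.323 with sound arrays). In the value table the lowest r between arrays was 0.935, so that table was used, and the flags of those 2 arrays were left out.

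Genes well above background on both arrays of at least 1 group were tested (25896) with limma 3.58.1 in R 4.3.3 (lmFit and eBayes, 7 group means, 7 residual degrees of freedom, Benjamini-Hochberg adjustment, threshold 0.05). A gene dim on every array of a group, not well above background by the flags, has a fold bound only, the bright group's mean against, per array, the higher of the gene's own value and the lowest value well above background. The MEF share of an array is the median level, relative to co-cultured MEFs, of genes at least 32-fold higher in those MEFs than in tumor cells alone, and 1 alternative subtracts it on the linear scale, holding each array at its lowest value well above background (the floor). A list's summed level is the log2 of the sum of its linear levels. Scripts were tested on simulated data.

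The groups and the 39 gene lists were chosen with earlier results of these data known. Genes named were Hsf1, Tgfb1 and Cxcl12, the 10 highest and 10 lowest differences, the 4 largest bounds per direction, the 8 highest and 8 lowest among genes typical of the tumor line, and, for each list, the 5 or fewer members of smallest p; not all are printed, and results of some genes are not reported here, though counts include them. Other list members, among them all those named for not passing, Cd274, Ifih1, Nlrc5, Psmb8, Psmb10, Tap1 and Tap2, were chosen after their values were seen. Names are those of the array, and 20800 rows match a current RefSeq symbol. Promoter windows are RefSeq's (GRCm38.p6, 12981 tested genes with a window). Probe coordinates are mm9, per the file headers. Alternatives covered the arrays fitted, the replicate letter as a block, each array left out, filters, scaling, background correction and the MEF share.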

Additional observations from a re-analysis of the deposited data

Results flagged for a closer look

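The following genes differed between partners in the opposite sense to the same contrast in the co-cultured MEFs, and the difference of the differences (tumor cells minus MEFs, log2) passed in the same limma fit. Against 4569 genes whose difference of differences passed, 159 genes were called as higher with null in tumor cells and lower in null MEFs, and 97 the other way. Among surface and tumor-typical genes the value was 4.57 for Ly6a, 2.42 for Ly6f, 3.89 for Itgb7 and 2.55 for Apobec1. For Ly6a the null minus WT difference was 3.78 in tumor cells and -0.79 in MEFs, and for Itgb7 it was 2.89 and -1.01. Stress genes had 2.20 for Ddit3, 2.99 for Trib3, 2.12 for Slc7a11, 1.84 for Hmox1 and 1.73 for Ndrg1.

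Transcription factor genes of the AP-1 and KLF families had 3.12 for Fosl1, 1.23 for Fosl2 and 1.67 for Klf6. The values were 2.99 for Inhba, an activin subunit, 2.30 for Ctgf, 3.63 for Cnn1, a contractile protein, and 2.36 for the platelet chemokine Pf4. On the other side Tyms had -0.999 and Gstm1, a glutathione transferase, -1.48. The tumor cell call was lost for Ctgf without WT array B (adjusted p = 0.0630), for Trib3 without WT array B (0.0951) or null array B (0.0517), for Klf6 without WT array B (0.208), null array A (0.0674) or null array B (0.148), and for Fosl2 without WT array A (0.177), null array A (0.0850) or null array B (0.104). On the 12 sound scanner arrays the call was lost for Inhba (0.438), Fosl1 (0.180), Fosl2 (0.236), Klf6 (0.176), Slc7a11 (0.263), Hmox1 (0.0543), Trib3 (0.103) and Tyms (0.0897). With the 6 tumor arrays alone it was lost for Cnn1 (0.0886), Gstm1 (0.0593), Ctgf (0.104), Klf6 (0.187), Fosl2 (0.159), Trib3 (0.0575) and Tyms (0.0722), and with normexp for Inhba (0.0777), Slc7a11 (0.180), Fosl2 (0.170), Trib3 (0.0760) and Pf4 (0.0829).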

How the results depend on the processing

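With 2 arrays per group, 1 of them without a sound scanner file on the null side, counts moved with the arrays used. The total was 2457 genes, 1393 higher with null and 1064 with WT. It was 920 (626 and 294) with the 6 tumor arrays alone, 523 (383 and 140) with the 4 arrays alone, and 1497 to 2447 (916 to 1697 and 581 to 750) over fits that left out 1 array. On the 12 sound scanner arrays it was 1435 with 286 higher with WT, and normexp on the intensities gave 474 higher with WT. The 14 scanner files, faulty ones included, gave 0 (0 and 0) by limma, with 1196 genes at an unadjusted p under 0.05. Leaving out genes higher in MEFs gave 1081 (495 and 586), subtracting the MEF share gave 1932 higher with WT, and a 2-fold minimum gave 961 (764 and 197). Quantile scaling (2400), median centring (2391), a trended prior (2438), no filter (2151) and, added after seeing the data, leaving out the 2 arrays with a faulty scanner file (2588) stayed within 1.5 times.

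With the replicate letter as a block 3307 genes passed (1725 and 1582). Arrays with the same letter deviated together by r = 0.237 for this pair and 0.0920 to 0.599 over 21 pairs of groups, but letters share only a slide and 1 correlation fell under 0.1, so they were not taken as pairing. With the block Tgfb1 passed (adjusted p = 0.0260).

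Of 223 named genes, 184 of them called, directions turned with the MEF share subtracted for Ccl27a (-0.55), Cxcl12 (0.65), Dkk2 (0.049), Egfl7 (-1.13), Fbxl7 (0.018) and Mmp2 (0.17), of which Dkk2 and Fbxl7 were at the floor on 3 of the 4 arrays, and on the 12 sound scanner arrays for Itgb3 (0.24) and Pdia6 (0.23). After subtraction Ccl27a was at the floor on 1 null array and Mmp2 on 1 WT array. The cause of the turned directions was not tested. Car9, Cxcl15, Dkk3, Gas6, Igfbp2 and Sfrp2 were at the floor on all 4 arrays after subtraction and have no value. Named calls were lost for 64 genes on the 12 sound scanner arrays, 50 with normexp, 54 with the 6 tumor arrays, 85 with the 4 arrays, 15 to 39 with 1 array left out, 15 without the 2 arrays with a faulty scanner file, 8 with the MEF share subtracted, 6 without genes higher in MEFs, 5 without a filter and 0 under scaling, the prior or the block. Of the 68 interferon effector genes 58 passed on the 12 sound scanner arrays, 62 with normexp, 63 with the 6 tumor arrays and 60 with the 4 arrays.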
